A study of Mus musculus with 6 samples.

Results

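The expression of 10 genes of fatty acid elongation and front-end desaturation was examined in brown adipose tissue (BAT) of mice on 2 diets. The genes were chosen by symbol, as the 6 elongases Elovl1, Elovl3, Elovl4, Elovl5, Elovl6 and Elovl7 and the 4 desaturases Fads1, Fads2, Fads3 and Fads6, and all 10 were found among the 47729 genes listed for each mouse. BAT was the right interscapular depot of male wild-type C57BL/6J mice that were housed singly and were 6 weeks old at the start and 10 weeks old at the end. For 4 weeks, 3 of the sequenced mice (HFD-fed) ate a diet with 45% of its calories from fat and the other 3 (LFD-fed) ate a standard low-fat rodent diet. The 3 mice of each diet were picked out of 5 for the greatest, medium and least fat mass, so their spread covers the extremes of a group and each mouse gave 1 library. The diets were products of different makers, so fat content need not be their only difference. The comparison asks which of these transcripts differed between the BAT of HFD-fed and LFD-fed mice.

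Fatty acids longer than palmitate are built on the endoplasmic reticulum, where malonyl-CoA gives a pair of carbons in each turn of a cycle of 4 reactions. An ELOVL protein carries out the first and rate-limiting condensation and sets which chains are accepted, HSD17B12 and TECR carry out the reductions, and a HACD protein the dehydration between them. FADS proteins add double bonds with electrons passed on by cytochrome b5, and FADS2 and FADS1 alternate with ELOVL5 to make arachidonic acid and the long omega-3 fatty acids from dietary linoleic and linolenic acid. In brown fat, chain elongation is best known through Elovl3, which was found as a gene induced by cold, and Elovl6, which joins lipogenesis to the supply of stearate and oleate.

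Of the 10 genes, 3 lie side by side on chromosome 19 of GRCm38, with Fads3 at 10041569 to 10060110, Fads2 on the opposite strand at 10062765 to 10101746 and Fads1 at 10182888 to 10196877. The gap from Fads3 to Fads2 is 2.65 kb and that from Fads2 to Fads1 is 81.1 kb. Elovl3 is on the same chromosome at 46131897 to 46135694. The others are spread over chromosome 4 (Elovl1, 118428093 to 118432953), chromosome 9 (Elovl4, 83778692 to 83806277, and Elovl5, 77917364 to 77984519), chromosome 3 (Elovl6, 129532355 to 129638495), chromosome 13 (Elovl7, 108214404 to 108285683) and chromosome 11 (Fads6, 115279622 to 115297663). All are protein-coding genes, and RSEM counts reads over the exons of their transcripts.

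Upstream sequences were taken from RefSeq on GRCm38.p6, which matched 8 of the 10 genes, with no entry for Fads1 and Elovl3. The 250 bases before each start were searched on both strands for the letters of 3 motifs that are common in promoters, lipid genes included: the CCAAT box (CCAAT, or read on the other strand as ATTGG), an E-box (CACGTG, its own reverse complement) and the GC box (GGGCGG or CCGCCC). Of 32851 upstream windows of this length, 33.8% hold the CCAAT box, 6.02% this E-box and 32.7% the GC box. Printed here are 3 of them, because Fads3 had the highest level of the 4 Fads genes, Elovl6 the elongase with the highest mean level, and Elovl5 the elongase closest in mean level to Elovl6. Motif matches are in capitals and each sequence runs 5′ to 3′ on the + strand, on which all 3 genes lie.
Fads3, chr19:10041298-10041547: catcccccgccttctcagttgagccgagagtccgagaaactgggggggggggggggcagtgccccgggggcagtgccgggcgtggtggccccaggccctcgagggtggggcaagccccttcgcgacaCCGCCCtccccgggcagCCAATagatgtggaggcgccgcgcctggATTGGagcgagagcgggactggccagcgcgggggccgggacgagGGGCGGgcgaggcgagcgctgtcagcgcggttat
Elovl6, chr3:129532136-129532354: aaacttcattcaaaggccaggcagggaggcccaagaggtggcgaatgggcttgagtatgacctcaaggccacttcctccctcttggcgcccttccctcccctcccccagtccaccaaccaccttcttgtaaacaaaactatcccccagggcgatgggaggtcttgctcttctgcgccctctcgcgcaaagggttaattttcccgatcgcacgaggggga
Elovl5, chr9:77917115-77917363: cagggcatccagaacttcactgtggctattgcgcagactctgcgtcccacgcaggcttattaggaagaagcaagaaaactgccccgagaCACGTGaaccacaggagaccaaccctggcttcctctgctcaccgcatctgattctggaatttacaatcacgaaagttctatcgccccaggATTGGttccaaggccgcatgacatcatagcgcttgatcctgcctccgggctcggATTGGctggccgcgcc
The Fads3 window holds 2 CCAAT boxes and 2 GC boxes, and the Elovl5 window holds 2 CCAAT boxes and 1 E-box that starts 161 bases before the RefSeq start. The Elovl6 window, from which 31 bases inside the annotated gene were left off, holds none of these letters. The Fads3 window lies before the start of the GENCODE gene but within the span of the longest RefSeq gene model. The bases that follow the window were not found in a GENCODE transcript of Fads3. A match is a run of letters and not a measured binding site.

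Between 17156991 and 21603487 counts fell on genes in each mouse, and mitochondrially encoded genes took 8.50% to 22.7% of them in HFD-fed and 3.87% to 13.8% in LFD-fed mice. The tissue was checked against marker genes. Ucp1, the uncoupling protein that defines brown adipocytes, was at 2728, 4021 and 796 TPM (transcript abundance per length, scaled to a fixed total in each mouse) in HFD replicates 1, 2 and 3 and at 443, 11.03 and 76.0 TPM in LFD replicates 1, 2 and 3, and none of its 7 companion markers was at 0 in any mouse. The 8 brown adipocyte markers summed to 1850 to 7244 TPM in HFD-fed and 307 to 2101 TPM in LFD-fed mice. The 12 skeletal muscle markers, from Acta1 to Casq1, summed to 13.3 to 324 TPM in HFD-fed and 1750 to 11737 TPM in LFD-fed mice. On the log2 CPM scale, 11 of the 12 were lower in every HFD-fed mouse than in any LFD-fed mouse. This also held for 9.23% of all genes tested. The 8 macrophage markers summed to 1808 to 3690 TPM against 538 to 4192 TPM, the 8 T and NK cell markers to 10.96 to 24.9 TPM against 1.66 to 11.8 TPM, the 4 endothelial markers to 74.2 to 346 TPM against 93.6 to 199.9 TPM, the 4 white adipocyte markers to 43.7 to 311 TPM against 225 to 1898 TPM, and the 5 markers shared by all adipocytes to 4796 to 7129 TPM against 3777 to 13754 TPM. These differences stand beside each result given for the elongases and desaturases, and their part in those results was not tested. In whole tissue, fewer cells of a type and less RNA per cell cannot be told apart.

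All 10 genes passed the filter on low counts and were among the 17668 genes tested. Differences were tested with edgeR's quasi-likelihood test on the counts, and a call needed an adjusted p below 0.01 with a log2 fold change, HFD over LFD, past 1.5 in either direction. None of the 10 was called, with adjusted p from 0.287 (Fads1) to 0.938 (Elovl1), beside 0% of all genes tested called in either direction. Without adjustment, 2 of the 10 (Fads1 and Fads3) had a p under 0.05, both lower in HFD-fed mice, where 6.62% of all genes tested passed as lower, 3.86% as higher and 10.5% in either direction. DESeq2 also called none of the 10, beside 1.5% of its 20275 genes called lower and 0.523% called higher. With same-numbered mice as a block in edgeR, none was called either, beside 0% of all genes tested. That pairing was taken from correlations in these same counts, and no source used here says that the mice were matched. In the block fit the unadjusted p was under 0.05 for Fads1 (0.00702), Fads3 (0.0117) and Fads6 (0.0166), all lower in HFD-fed mice. An unadjusted p under 0.05 was found there for 17.5% of all genes tested, in either direction. Since TPM is a share of a fixed total, it is affected by the other RNA in a library: the log2 ratio of mean TPM, HFD over LFD, had a median of -0.29 over the genes tested, while the median log2 fold change in edgeR was -0.05.

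By mean TPM over the 6 mice, Elovl6 was the highest of the 10 at 92.2 TPM, followed by Elovl5 (56.6), Elovl1 (33.6), Fads3 (32.2), Elovl3 (19.3), Fads1 (18.0), Fads2 (6.21), Fads6 (1.54), Elovl4 (0.408) and Elovl7 (0.180). TPM is divided by length and can be compared between genes. Neighbours in this order were clearly apart in only some places. Elovl5 was above Elovl1, Fads1 above Fads2 and Fads2 above Fads6 in 6 of 6 mice, while Elovl6 was above Elovl5 in 3, Elovl1 above Fads3 in 3, Fads3 above Elovl3 in 4 and Elovl3 above Fads1 in 2 of 6 mice. Fads6 was above Elovl4 in 5 and Elovl4 above Elovl7 in 4 of 6 mice.

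**Figure D1:**
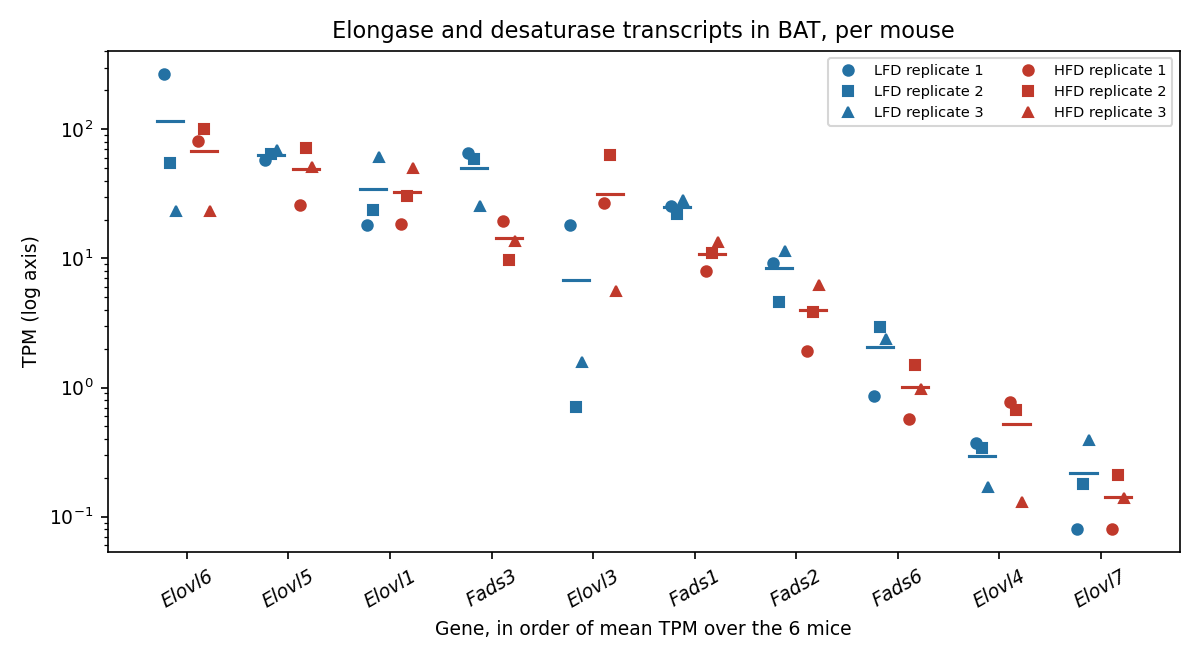
TPM of each of the 10 genes (log axis) in each mouse, with LFD-fed mice in blue, HFD-fed mice in red, a marker shape for each replicate number and a line at the mean of each diet. The red points of Fads1 (7.98 to 13.4 TPM) and Fads3 (9.72 to 19.5 TPM) lie below all blue points of the same gene, and those of the other 8 genes overlap with the blue.

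Among the desaturases, all 4 had lower means in HFD-fed mice. The median of their log2 fold changes was -1.04, against -0.05 over all genes tested. A negative fold change was found for 54.4% of all genes tested. All 4 were also lower in the HFD-fed mouse of each of the 3 same-numbered pairs on the log2 CPM scale, as were 21.3% of all genes tested. None passed the test after adjustment.

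Fads1 encodes the delta-5 desaturase, which makes arachidonic and eicosapentaenoic acid. It was at 7.98, 10.9 and 13.4 TPM in HFD replicates 1, 2 and 3 and at 25.4, 21.9 and 28.3 TPM in LFD replicates 1, 2 and 3. The diets did not overlap, with 10.8 ± 2.72 TPM in HFD-fed and 25.2 ± 3.19 TPM in LFD-fed mice (SD, n = 3 each). Its log2 fold change was -1.08 (SE 0.30), 2.11 times higher in LFD-fed mice, with an adjusted p of 0.287 in edgeR and an unadjusted p of 0.00973. Leaving out each mouse in turn gave values from -1.27 to -0.72. The diets were also apart on the log2 CPM scale, with 5.07, 4.82 and 5.08 in HFD-fed and 6.61, 5.62 and 5.80 in LFD-fed mice. They were apart in the same direction for 9.23% of all genes tested (11.6% on the TPM scale), while 6.72% were apart the other way.

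Fads2 encodes the delta-6 desaturase, the first and rate-limiting step of the same pathway. It was at 1.91, 3.88 and 6.27 TPM in HFD replicates 1, 2 and 3 and at 9.19, 4.61 and 11.4 TPM in LFD replicates 1, 2 and 3. The HFD-fed mouse with the most Fads2 was above the LFD-fed mouse with the least, so the diets overlapped. The log2 fold change was -1.003 (SE 0.51), with an adjusted p of 0.558 in edgeR, and it was -0.55 without LFD replicate 1. The difference on the log2 CPM scale was -2.10 between the mice numbered 1, -0.04 between those numbered 2 and -0.51 between those numbered 3. The log2 ratio of Fads2 to Fads1 TPM within a mouse was -2.06, -1.49 and -1.10 in HFD-fed and -1.47, -2.25 and -1.31 in LFD-fed mice, a difference of 0.12 (exact two-sided permutation test, p = 0.7, where 3 mice against 3 cannot go below 0.1). The ratio overlapped between diets, and its difference changed sign when HFD replicate 3 or LFD replicate 2 was left out.

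Fads3, which lies next to Fads2 and encodes a desaturase known to act on sphingoid bases and on trans-vaccenic acid, had the largest fold change of the 4. It was at 19.5, 9.72 and 13.6 TPM in HFD replicates 1, 2 and 3 and at 66.0, 59.1 and 25.5 TPM in LFD replicates 1, 2 and 3. LFD replicate 3 was less than 10 TPM above the highest HFD-fed mouse, and the other LFD-fed mice were far above. After TMM scaling the diets overlapped, with HFD replicate 1 at a log2 CPM of 6.28 and LFD replicate 3 at 5.57. The log2 fold change was -1.62 (SE 0.68), 3.08 times higher in LFD-fed mice, with an adjusted p of 0.476 in edgeR and an unadjusted p of 0.0499. It was -0.94 without LFD replicate 1 and -2.30 without HFD replicate 1. The unadjusted p was as high as 0.183 when a mouse was left out.

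Fads6, a family member whose substrate is not well known, was low, at 0.57, 1.5 and 0.97 TPM in HFD replicates 1, 2 and 3 and at 0.86, 2.97 and 2.38 TPM in LFD replicates 1, 2 and 3. These values rest on 46 to 161 counts per mouse, with an uncertainty from reads shared with other genes of up to 5.30% of the count. On the TPM scale the diets overlapped. On the log2 CPM scale they did not, with 1.44, 2.01 and 1.22 in HFD-fed and 2.15, 2.96 and 2.18 in LFD-fed mice. Such a gap in this direction was found for 9.23% of all genes tested. The log2 fold change was -0.91 (SE 0.40) and the adjusted p 0.494 in edgeR, and the fold change was -0.59 without LFD replicate 2.

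Summed over the 4 desaturases, expression came to 30.0, 26.0 and 34.2 TPM in HFD replicates 1, 2 and 3 and to 101.4, 88.5 and 67.5 TPM in LFD replicates 1, 2 and 3. Every LFD-fed mouse had more than any HFD-fed mouse. The means were 30.1 ± 4.11 and 85.8 ± 17.1 TPM (SD, n = 3 each; exact two-sided permutation test, p = 0.1, the smallest that 3 against 3 allows). The LFD mean was 2.85 times the HFD mean, 2.69 times with mitochondrially encoded genes taken out of the total and 3.07 times with TPM divided by the TMM factor. Fads3 made up 37.4% to 65.1% of the sum in HFD-fed and 37.8% to 66.7% in LFD-fed mice, so its share overlapped. Fads1 made up 26.6% to 42.0% and 24.7% to 41.8%.

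**Figure D2:**
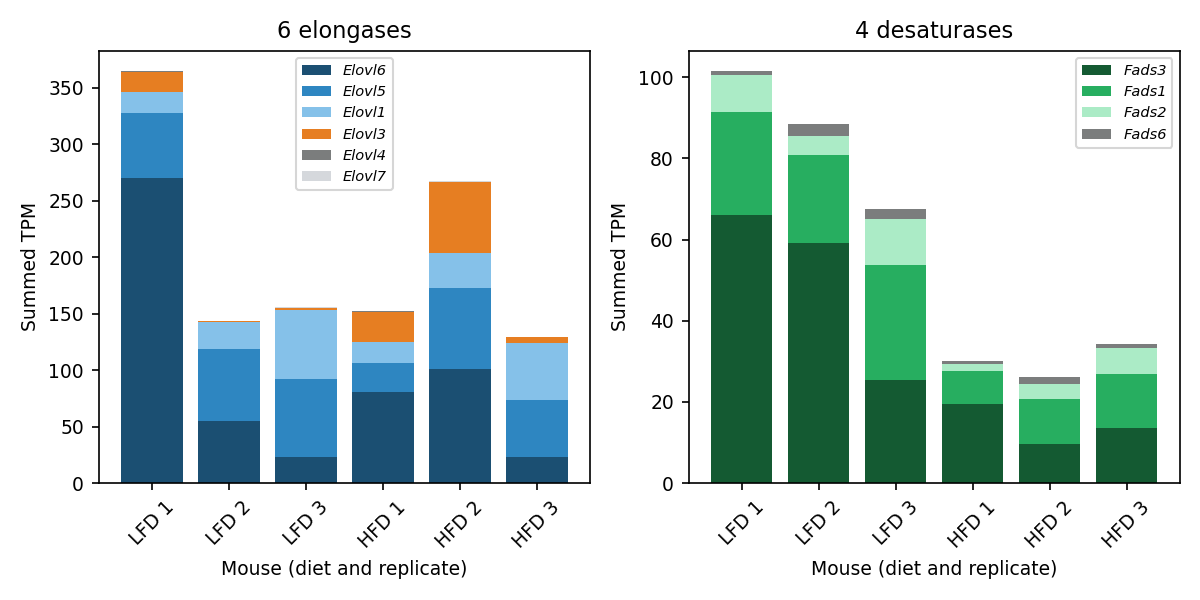
Summed TPM of the 6 elongases (left) and the 4 desaturases (right) in each mouse, with a colour for each gene and both axes starting at 0. The desaturase bars reach 26.0 to 34.2 TPM in HFD-fed and 67.5 to 101.4 TPM in LFD-fed mice, while the elongase bars of the diets overlap and Elovl6 (dark blue) sets the height of LFD replicate 1.

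The elongases did not move one way. Of the 6, 3 had a negative and 3 a positive log2 fold change, with a median of -0.05, and none had an unadjusted p under 0.05. Adjusted p in edgeR ran from 0.736 to 0.938. Elovl1 and Elovl3 were higher in the HFD-fed mouse of each same-numbered pair on the log2 CPM scale, which was also so for 21.1% of all genes tested. For Elovl1 these differences were only 0.09, 0.52 and 0.01. In TPM, HFD replicate 3 was below LFD replicate 3 for Elovl1 (49.8 and 61.1 TPM).

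Elovl6, which extends palmitate to stearate, was at 80.6, 101.2 and 23.2 TPM in HFD replicates 1, 2 and 3 and at 269.9, 54.8 and 23.4 TPM in LFD replicates 1, 2 and 3. It spanned 11.6 times from the lowest to the highest mouse, and LFD replicate 1 alone was far above the rest. The log2 fold change was -0.82 (SE 1.16), with an adjusted p of 0.892 in edgeR. Without LFD replicate 1 it was 1.36, and with same-numbered mice as a block it was -0.01. The direction of Elovl6 therefore rested on 1 mouse.

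Elovl5 extends polyunsaturated chains between the steps of Fads2 and Fads1. It was at 25.7, 71.8 and 50.7 TPM in HFD replicates 1, 2 and 3 and at 58.0, 64.0 and 69.2 TPM in LFD replicates 1, 2 and 3. The highest and the lowest of the 6 mice were both HFD-fed, and the LFD-fed mice were close together. The log2 fold change was -0.27 (SE 0.31), with an adjusted p of 0.850 in edgeR, and it was -0.03 without LFD replicate 1. The log2 ratio of Elovl6 to Elovl5 TPM was 1.65, 0.50 and -1.13 in HFD-fed and 2.22, -0.22 and -1.56 in LFD-fed mice, a difference of 0.19 (exact two-sided permutation test, p = 0.9). This ratio differed more within each diet than between them, and its difference changed sign when HFD replicate 1 or LFD replicate 3 was left out.

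Elovl3 extends saturated and monounsaturated chains beyond stearate and oleate and is the elongase known for its rise in cold-exposed brown fat. It was at 26.8, 62.7 and 5.64 TPM in HFD replicates 1, 2 and 3 and at 18.2, 0.71 and 1.59 TPM in LFD replicates 1, 2 and 3. The highest and the lowest mice were 88.2 times apart, the widest span of the 10 genes, and the diets overlapped because LFD replicate 1 was above HFD replicate 3. The log2 fold change was 1.96 (SE 1.47), with an adjusted p of 0.736 in edgeR. Within same-numbered pairs, the HFD-fed mouse was higher by 0.69, 6.47 and 2.09 on the log2 CPM scale. Without LFD replicate 1 the log2 fold change was 5.33, with an unadjusted p of 0.00454 and an adjusted p of 0.181 in edgeR. The remaining LFD-fed mice had 14 and 27 counts. This was the largest value when each mouse was left out in turn. The smallest was 1.35, without HFD replicate 2, and the unadjusted p was as high as 0.441.

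In TPM, the mice fell in the same order for Elovl3 as for Cidea, a lipid droplet protein and brown adipocyte marker, which was at 468, 734 and 222 TPM in HFD replicates 1, 2 and 3 and at 222, 18.9 and 38.6 TPM in LFD replicates 1, 2 and 3. In both genes HFD replicate 2 was highest, followed by HFD replicate 1, LFD replicate 1, HFD replicate 3, LFD replicate 3 and LFD replicate 2. LFD replicate 1 and HFD replicate 3 were nearly equal in Cidea (222.18 and 221.83 TPM). For Ucp1 the order differed by 1 swap, with HFD replicate 3 above LFD replicate 1. The order was not shared by all brown adipocyte markers. Dio2 had the same order as Elovl3, while Cox7a1, Cox8b, Ppargc1a, Prdm16 and Adrb3 each had another. Adrb3 was at 108 TPM in LFD replicate 2 and 94.5 TPM in LFD replicate 1, both above HFD replicate 2 (69.6 TPM). On the log2 CPM scale HFD replicate 1 was the highest mouse for Cidea (9.31, against 9.26 in HFD replicate 2) and for Ucp1, and HFD replicate 2 for Elovl3. This comparison was chosen after the values were seen and is a description over 6 mice.

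Elovl1, a widely expressed elongase of saturated very long chains, was at 18.5, 30.6 and 49.8 TPM in HFD replicates 1, 2 and 3 and at 18.1, 23.8 and 61.1 TPM in LFD replicates 1, 2 and 3. The mice numbered 1 were lowest and those numbered 3 highest in both diets. Its log2 fold change was 0.16 (SE 0.36), with an adjusted p of 0.938 in edgeR, and it turned negative without HFD replicate 3 (-0.10) or LFD replicate 2 (-0.06). The log2 ratio of Elovl3 to Elovl1 TPM was 0.54, 1.03 and -3.14 in HFD-fed and 0.01, -5.06 and -5.26 in LFD-fed mice. It was 2.91 higher in HFD-fed mice (exact two-sided permutation test, p = 0.2), higher in 3 of 3 same-numbered pairs, and overlapped between diets.

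Elovl4, which makes the very long chains of retina, brain and skin, and Elovl7, an elongase of saturated chains, were low. Elovl4 was at 0.77, 0.67 and 0.13 TPM in HFD replicates 1, 2 and 3 and at 0.37, 0.34 and 0.17 TPM in LFD replicates 1, 2 and 3, on 4 to 45 counts per mouse. Elovl7 was at 0.08, 0.21 and 0.14 TPM and at 0.08, 0.18 and 0.39 TPM, on 8 to 25 counts. Both overlapped between diets, with log2 fold changes of 0.96 (SE 0.94) and -0.32 (SE 0.50). Adjusted p in edgeR was 0.820 and 0.905. For Elovl4 the log2 fold change was 0.20 without HFD replicate 1 and 1.53 without LFD replicate 1, and that of Elovl7 turned to 0.12 without LFD replicate 3.

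The 6 elongases together summed to 152, 267 and 129.6 TPM in HFD replicates 1, 2 and 3 and to 365, 144 and 156 TPM in LFD replicates 1, 2 and 3. The sums overlapped, with 183 ± 73.7 and 221 ± 124 TPM (SD, n = 3 each; exact two-sided permutation test, p = 0.6). Their difference of -38.3 TPM became 33.3 TPM without LFD replicate 1. The make-up of the sum varied more than its size: Elovl6 made up 74.0% of it in LFD replicate 1 and 15.0% in LFD replicate 3, and Elovl3 made up 4.35% to 23.5% in HFD-fed and 0.494% to 4.99% in LFD-fed mice.

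**Figure D3:**
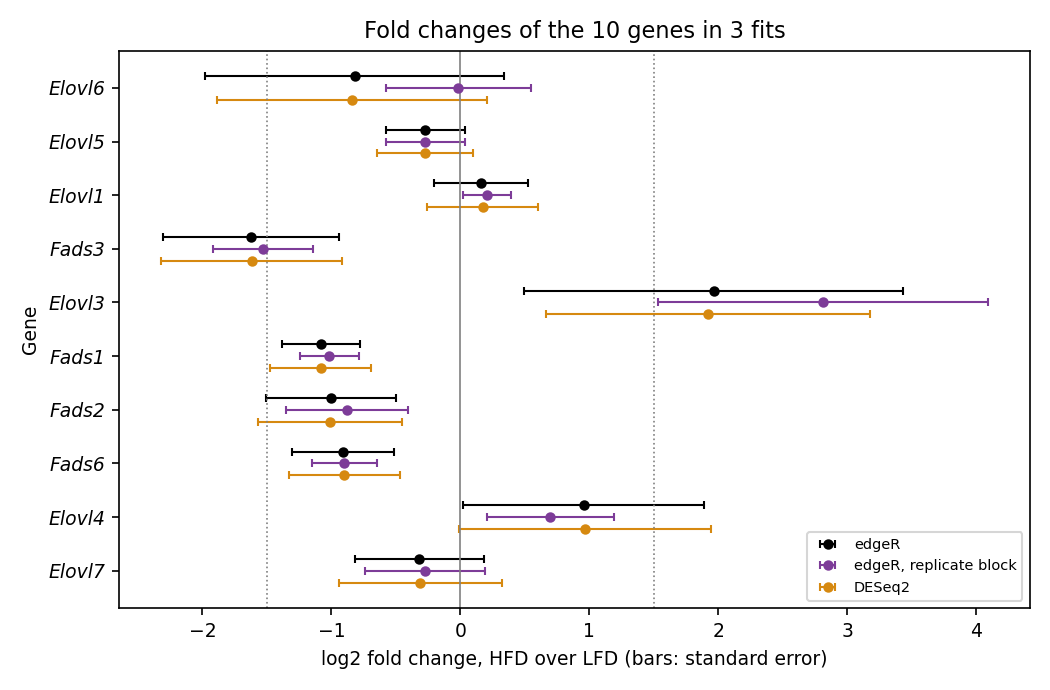
Log2 fold change, HFD over LFD, of the 10 genes in 3 fits (edgeR in black, edgeR with same-numbered mice as a block in purple, DESeq2 in orange), with bars of 1 standard error and dotted lines at the fold threshold of 1.5 either way. The 4 desaturases lie left of 0 in each fit, from -0.88 to -1.62, while Elovl6 moves from -0.82 to -0.01 with the block.

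The other genes of the pathway were taken from 8 lists, and none of their members was called in edgeR. Of the elongation cycle partners, 5 of 6 tested had a negative and 1 a positive log2 fold change (median -0.30). Hsd17b12, the first reductase and the highest of them, was at 153, 211 and 100.05 TPM in HFD replicates 1, 2 and 3 and at 308, 181 and 83.4 TPM in LFD replicates 1, 2 and 3, which overlapped (-0.27, adjusted p = 0.950, and 0.74 without LFD replicate 1). Tecr, the last reductase, was at 61.7, 61.3 and 43.0 TPM and at 241, 113 and 61.4 TPM (-1.30, SE 0.75, adjusted p = 0.624). It was lower in the HFD-fed mouse of each same-numbered pair, as were 21.3% of all genes tested on the log2 CPM scale. Without LFD replicate 1 the log2 fold change of Tecr was -0.09 and the median of the list -0.0053. Tecrl was too low to test.

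Of the list of delta-9 and other desaturases, 3 of 5 tested had a negative and 2 a positive fold change (median -0.11). Scd1, the stearoyl-CoA desaturase that makes oleate and palmitoleate, had by far the highest level of any desaturase, at 1494, 1751 and 562 TPM in HFD replicates 1, 2 and 3 and at 12695, 5399 and 1027 TPM in LFD replicates 1, 2 and 3. The diets overlapped, and the log2 fold change was -2.36 (SE 1.35, adjusted p = 0.621 in edgeR) and -0.78 without LFD replicate 1. Degs2, a ceramide hydroxylase and desaturase, had a log2 fold change of 1.46 (SE 0.56, adjusted p = 0.439 in edgeR). It was at 0.68, 1.88 and 2.38 TPM in HFD-fed and at 0.16, 0.98 and 1.07 TPM in LFD-fed mice. The diets overlapped on the TPM but not on the log2 CPM scale. There, 6.72% of all genes tested were higher in every HFD-fed mouse than in any LFD-fed mouse. Of the genes of electron supply, 3 of 5 tested had a negative fold change (median -0.64). Cyb5a, the cytochrome b5 of the endoplasmic reticulum, was at 195, 206 and 191 TPM in HFD-fed and at 539.8, 487 and 236 TPM in LFD-fed mice (-0.98, SE 0.54, adjusted p = 0.607), which did not overlap on the TPM scale, as was so for 11.6% of all genes tested. On the log2 CPM scale they did, with LFD replicate 3 (6.27) below all 3 HFD-fed mice (7.10, 6.46 and 6.32), and the log2 fold change of Cyb5a was -0.34 without LFD replicate 1. Cyb5r3, the reductase that loads it, had a log2 fold change of -0.64 (SE 0.28, adjusted p = 0.494). Scd3 and Cyb5r2 were too low to test.

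Of the genes that make malonyl-CoA and fatty acids, 5 of 6 had a negative fold change, and their median of -2.23 was the lowest of the 8 lists. Without LFD replicate 1 that median was -0.36. Fasn, the fatty acid synthase that supplies palmitate to Elovl6, was at 915, 533 and 48.3 TPM in HFD replicates 1, 2 and 3 and at 5515, 2222 and 365 TPM in LFD replicates 1, 2 and 3 (-2.30, SE 1.57, adjusted p = 0.701). Acss2, which makes acetyl-CoA from acetate, was at 62.4, 47.1 and 13.6 TPM and at 579, 149 and 30.4 TPM (-2.60, SE 1.301, adjusted p = 0.555). Both genes were lower in the HFD-fed mouse of each same-numbered pair, as were 21.3% of all genes tested on the log2 CPM scale. They overlapped between diets, with LFD replicate 1 highest, as it was for Elovl6. Without that mouse the log2 fold change was -0.68 for Fasn and -0.50 for Acss2. In LFD replicate 2, Fasn was above every HFD-fed mouse while Elovl6 was below HFD replicates 1 and 2.

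Of the acyl-CoA synthetases, which activate fatty acids before elongation, 3 of 5 had a negative fold change (median -0.14). Acsl1, the main adipocyte form, was at 570.3, 719 and 285 TPM in HFD-fed and 1599, 1095 and 229 TPM in LFD-fed mice (-0.78, adjusted p = 0.853, and 0.17 without LFD replicate 1). Acsl6, a form of brain and skeletal muscle, was at 0.02, 0.03 and 0.02 TPM and at 0.66, 1.52 and 0.72 TPM (-3.62, SE 0.69, adjusted p = 0.173 in edgeR and 0.00373 in DESeq2, which called it). Of the ceramide synthases, which use the very long acyl-CoAs, 3 of 5 tested had a negative fold change (median -0.26). Cers2, the synthase of very long chains, was at 81.2, 99.6 and 111.6 TPM in HFD-fed and 104.4, 90.8 and 96.7 TPM in LFD-fed mice (0.16, adjusted p = 0.937, and 0.61 without LFD replicate 1), and Cers3 was too low to test. Cers1, the form of brain and skeletal muscle, was at 0.07, 0.08 and 0.06 TPM and at 0.68, 2.01 and 0.66 TPM (-3.90, SE 0.63, adjusted p = 0.1705 in edgeR and 0.000213 in DESeq2, which called it). DESeq2 called 1.5% of its 20275 genes lower and 0.523% higher. Of the genes of the 8 lists named here, it called only Acsl6 and Cers1. Both were near the floor in HFD-fed mice, with 2 counts in each for Acsl6 and 1, 3 and 3 for Cers1. In LFD-fed mice the counts were 13, 48 and 14 for Acsl6 and 29, 53 and 18 for Cers1. For Cers1 the uncertainty from reads shared with other genes reached 112% of the count. The summed skeletal muscle markers given above were also lower in HFD-fed mice, and their part in these values was not tested.

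Of the peroxisomal genes, which shorten very long chains, 4 of 7 had a negative fold change (median -0.07). Scp2, a peroxisomal thiolase and lipid carrier, was the highest of them (-0.28, adjusted p = 0.949, and 0.42 without LFD replicate 1), and Abcd2, an importer of very long acyl-CoAs, was at 33.9, 17.8 and 7.28 TPM in HFD-fed and 116, 124 and 21.4 TPM in LFD-fed mice (-1.89, SE 1.00, adjusted p = 0.583, and -1.19 without LFD replicate 1). Of the regulators, 7 of 10 had a negative fold change (median -0.21). Srebf1, which drives Scd1, Fasn, Elovl6 and the Fads genes in liver, was at 103.4, 139 and 103.2 TPM in HFD replicates 1, 2 and 3 and at 515, 387 and 128 TPM in LFD replicates 1, 2 and 3 (-1.55, SE 0.67, adjusted p = 0.490, and -0.71 without LFD replicate 1). LFD replicate 3 lay within the range of the HFD-fed mice. Ppara, the fatty acid receptor of oxidative tissues, was at 48.8, 77.4 and 26.4 TPM in HFD-fed and at 15.4, 7.82 and 4.48 TPM in LFD-fed mice, which did not overlap (2.56, SE 0.82, adjusted p = 0.351 in edgeR and 0.0383 in DESeq2). On the TPM scale, 1.65% of all genes tested were higher in every HFD-fed mouse than in any LFD-fed mouse. On the log2 CPM scale, where Ppara did not overlap either, this held for 6.72%.

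**Figure D4:**
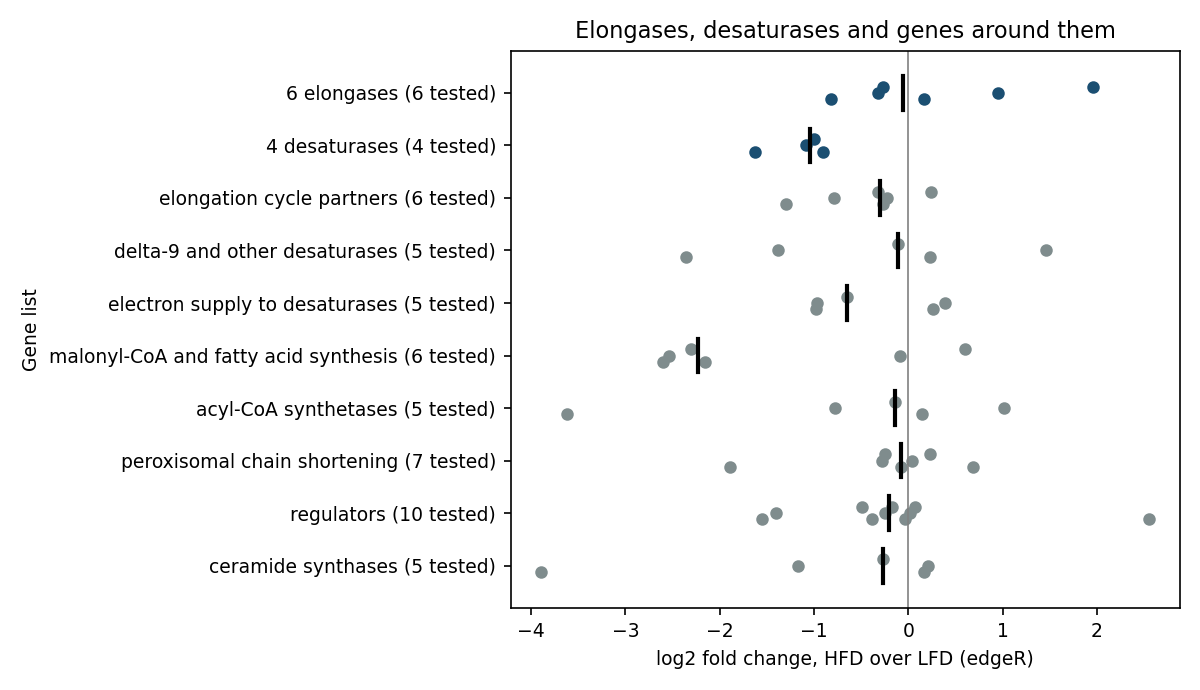
Log2 fold change in edgeR, HFD over LFD, of each tested gene (points) of the 6 elongases, the 4 desaturases and the 8 lists of surrounding genes, with a black bar at the median of each. The desaturase points lie between -1.62 and -0.91, the elongase points spread from -0.82 to 1.96 around a median of -0.05, and the synthesis list has the lowest median at -2.23.

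Side by side on the log2 CPM scale, the genes showed different orders of the mice. Fads3, Scd1, Srebf1 and Fasn had LFD replicates 1 and 2 highest, Elovl6 and Hsd17b12 had LFD replicate 1 and then HFD replicates 1 and 2, and Elovl3, Cidea and Ucp1 had HFD replicates 2 and 1 among their highest and LFD replicates 2 and 3 lowest. Fads1 and Fads2 had LFD replicate 1 highest. Elovl5 and Elovl1 varied least among the members above 10 TPM, by 2.79 and 3.38 times from the lowest to the highest mouse in TPM.

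**Figure D5:**
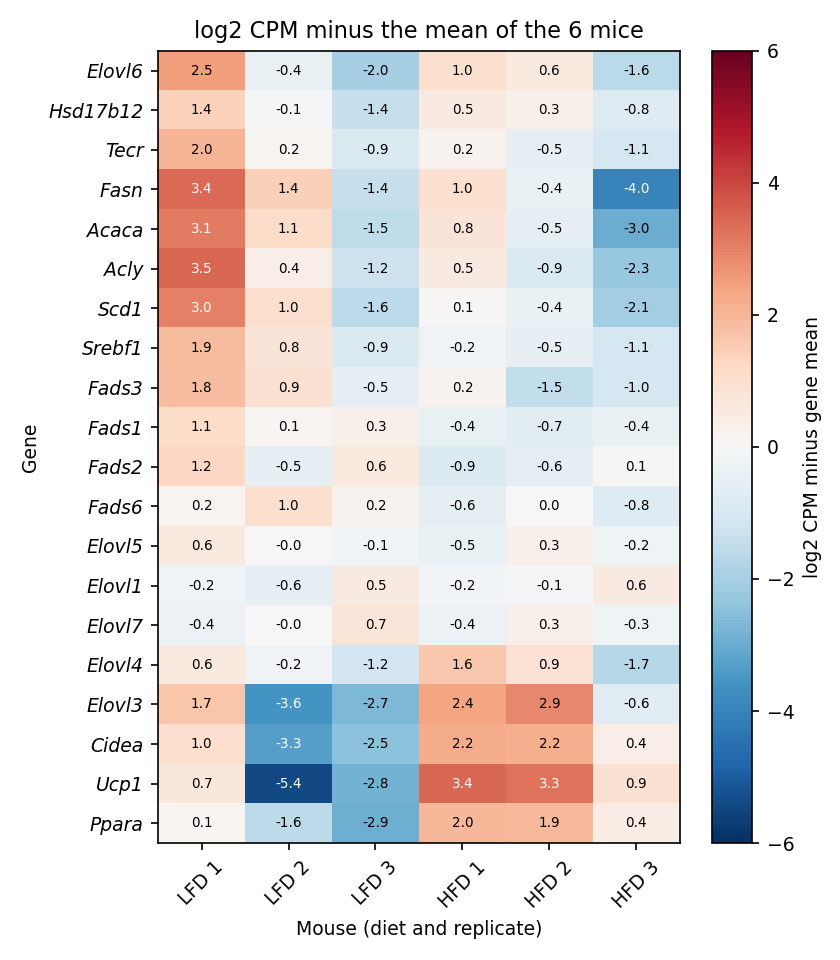
Log2 CPM of 20 genes (rows) in each mouse (columns) minus the mean of that gene over the 6 mice, with red above and blue below the mean and the value printed in each cell. The 4 desaturases are at or below their mean in most HFD-fed mice, Elovl3, Cidea and Ucp1 are highest in HFD replicates 1 and 2, and Elovl6 is highest in LFD replicate 1.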

How the data were processed

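Total RNA depleted of ribosomal RNA, from BAT of 6 mice, was read as single ends of 75 bases. The authors trimmed adapters with Trimmomatic 0.36 and quantified genes with RSEM 1.3.0 on GRCm38.p4 with the Ensembl 84 annotation. The authors deposited expected counts, which are not normalized and share out reads that match several genes, and TPM values, which are divided by effective length and scaled to a fixed total per mouse. The deposited gene lengths and the posterior SD of each count served as descriptions only.

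Expected counts were rounded and tested with edgeR 4.0.16 in R 4.3.3 (quasi-likelihood test, TMM, filterByExpr, no robust fitting, Benjamini-Hochberg adjustment over all 17668 genes tested). Log2 CPM used a prior count of 2. Depth was 17156991 to 21603487 counts per mouse. Genes with few counts carry counting error beside the variation of the animals. No 2 mice of a diet had counts that agreed within sampling noise (chi-square per degree of freedom of at least 52.6). Samples were grouped by diet and numbered 1 to 3 from the labels. Deviations from the diet means correlated at r = 0.229 to 0.522 in the 3 same-numbered pairs (mean 0.416). The 6 other pairs had a mean of -0.204. Deviations sum to 0 within each diet, so this negative mean follows from the positive one and is no separate evidence. Every same-numbered pair was over 0.1, so the numbers were treated as pairing the mice, in an alternative fit. No source used here says that same-numbered mice were matched.

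The genes and lists were chosen with earlier results of these data known. All 10 genes are named, and from each list the gene with the highest mean TPM and the gene with the smallest p. Lists are described by counts and medians, without a test. Alternatives were DESeq2 1.42.0, its size factors, no filter on low counts, at least 10 counts in every mouse, mitochondrial and ribosomal RNA genes left out, the replicate block, other scalings, pseudocounts and thresholds, and the omission of each mouse. The tests were also run on simulated counts, whose means and dispersions were taken from these data. Positions come from GENCODE M21 of GRCm38.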

Additional observations from a re-analysis of the deposited data

How the results depend on the processing

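With 3 mice per diet, no single comparison of 3 against 3 could reach p = 0.05 by permutation, and Elovl4 and Elovl7 rest on 4 to 45 and 8 to 25 counts per mouse, so that counting error adds to the spread of their fold changes. Across the table, edgeR called 0 genes at these thresholds (1851 at an unadjusted p under 0.05, smallest adjusted p 0.1705), and DESeq2 called 411; none of the 10 genes was called by either. With same-numbered mice as a replicate block, edgeR called 0 genes and 0 of the 10 (smallest adjusted p over all genes 0.0102), the unadjusted count was 3094, and the block changed no call; it turned the median of the peroxisomal genes from -0.07 to 0.17.

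Of 118 alternative values for the log2 fold changes of the 10 genes, 114 kept their direction and 0 passed the thresholds. The 4 that turned were Elovl1 at -0.10 without HFD replicate 3 and -0.06 without LFD replicate 2, Elovl6 at 1.36 without LFD replicate 1 and Elovl7 at 0.12 without LFD replicate 3. All 4 desaturases stayed negative under each alternative. Leaving out each mouse in turn gave -0.10 to 0.56 for Elovl1, 0.20 to 1.53 for Elovl4, -1.35 to 1.36 for Elovl6 and -0.59 to 0.12 for Elovl7, and moved the difference in summed elongase TPM from -80.4 to 33.3, the difference in the Elovl6 to Elovl5 ratio from -0.66 to 1.23 and that of Fads2 to Fads1 from -0.16 to 0.38, while the summed desaturase difference stayed between -64.9 and -47.9 TPM.

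For the list medians, leaving out each mouse gave -0.75 to -0.0039 for delta-9 and other desaturases, -0.85 to 0.13 for electron supply, -3.32 to -0.36 for malonyl-CoA and fatty acid synthesis and -0.41 to -0.18 for ceramide synthases, -0.58 to -0.0053 for elongation cycle partners, -0.36 to 0.15 for acyl-CoA synthetases, -0.51 to 0.42 for peroxisomal genes and -0.56 to 0.12 for regulators. In each list whose median turned positive, and in the elongation cycle partners, the highest value was that without LFD replicate 1. A minimum of 10 counts in every mouse, which leaves out low genes, gave -1.35 for the delta-9 list and -0.031 for the ceramide synthases, whose median was -0.66 in DESeq2 and -0.63 with no filter. The cause of the other changes was not tested.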

Other observations

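Elovl2, the remaining elongase gene of the mouse and not one of the 10, was looked at after the other values were seen. It had 1 to 9 counts per mouse (0.02 to 0.14 TPM) and was too low to be tested.

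Among 14614 genes with at least 10 counts in every mouse, the genes whose log2 CPM followed Elovl6 most closely over the 6 mice were Nf2 (Pearson r = 0.9996), Surf1 (0.9992) and Cyhr1 (0.9984). Those closest to Fads3 were Ispd (0.993), Fbxo4 (0.991) and Dyrk1a (0.988). These are the highest of 14614 values over 6 points that share libraries and scaling, and they describe these 6 mice only.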
